A study of Mus musculus with 4 samples.

Results

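The 9 genes described here, Lhx2, Emx1, Emx2, Pax6, Otx1, Otx2, Six3, Nr2f1 and Nr2f2, encode transcription factors that pattern the embryonic forebrain, most of them its dorsal part. They were read through H3K27ac, the acetylated form of a histone H3 lysine that is found at promoters and enhancers in use, in cultured neural stem cells. Members were H3K27ac peaks that overlapped the RefSeq body of a gene or the 20 kb on either side of it, called the window of that gene below. The windows held 50 of 91557 peaks in Smchd1-deleted cells and 44 of 63613 in control cells, for 9 of 21631 protein-coding genes.

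The cells were female neural stem cell lines made from Smchd1 del/fl mouse embryos at E14.5, strain C57BL/6 in the labels, and the labels name no brain region. All had a maternal X of 129 origin with an Xist deltaA allele and a Castaneus X from the father. Deleted cells, Smchd1 del/del, came from the same lines after transduction with a retrovirus (MSCV-Cre-puro) that carried Cre recombinase and puromycin resistance, with puromycin from 24 h and collection after 7 days. Control cells were not transduced, so deletion, transduction and selection cannot be told apart. Each group had 1 ChIP-seq library and 1 input library of whole-cell extract, and every value below is from a single library without a replicate. For the control ChIP the title reads Smchd1 fl/fl but the genotype entry reads Smchd1 del/fl, and for the control input that entry reads Smchd1 del/del. The antibody entry gives H3K27me3, whereas titles and file headers give H3K27ac. ChIP depth after filtering was 54194233 tags in deleted and 42277672 in control cells, a ratio of 1.28, and the number of weak peaks that pass a limit depends on depth. Fold enrichment is the authors' value for each peak, the pileup at the summit over the local input background. It was not scaled between libraries, so the values of both lists are given side by side.

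Regional identity in the early forebrain is set by transcription factors with graded or bounded expression. Lhx2 acts as a selector of cortical fate, Emx2 and Pax6 form opposed gradients across the cortical progenitor layer, and the COUP-TF nuclear receptors Nr2f1 and Nr2f2 shape cortical areas. Otx1 and Otx2 are homeodomain proteins of the forebrain and midbrain, and Six3 is needed for the most anterior forebrain and the eye. Many such genes sit beside long stretches of regulatory DNA and have a noncoding gene on the opposite strand.

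The promoter table (RefSeq, GRCm38.p6, 250 bases before to 50 after a start site) matched 8 of the 9 genes, with 14 start sites. Peaks of both lists overlapped 3 of these promoter windows, those of Emx2, the internal start site of Lhx2 and the internal start site of Nr2f1. They are printed first. The last 3 are shown for contrast: the upstream start site of Nr2f1, which lay between peaks, and the promoters of Emx1 and Nr2f2, which no peak overlapped. Capitals mark CG dinucleotides.
Emx2, chr19:59458440-59458739, plus strand: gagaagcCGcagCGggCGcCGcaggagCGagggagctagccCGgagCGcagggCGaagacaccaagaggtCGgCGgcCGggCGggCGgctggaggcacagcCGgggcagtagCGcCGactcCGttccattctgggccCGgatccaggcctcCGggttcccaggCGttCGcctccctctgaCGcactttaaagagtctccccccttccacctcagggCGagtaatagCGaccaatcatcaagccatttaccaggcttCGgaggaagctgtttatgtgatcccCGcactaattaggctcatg
Lhx2 internal, chr2:38351058-38351357, plus strand: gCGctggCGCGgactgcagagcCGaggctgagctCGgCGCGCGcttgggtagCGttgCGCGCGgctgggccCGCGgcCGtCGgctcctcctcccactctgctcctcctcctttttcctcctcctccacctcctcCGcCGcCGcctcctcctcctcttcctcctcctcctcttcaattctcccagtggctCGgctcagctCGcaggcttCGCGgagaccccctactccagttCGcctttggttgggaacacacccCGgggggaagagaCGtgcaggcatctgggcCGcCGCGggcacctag
Nr2f1 internal, chr13:78196400-78196699, minus strand: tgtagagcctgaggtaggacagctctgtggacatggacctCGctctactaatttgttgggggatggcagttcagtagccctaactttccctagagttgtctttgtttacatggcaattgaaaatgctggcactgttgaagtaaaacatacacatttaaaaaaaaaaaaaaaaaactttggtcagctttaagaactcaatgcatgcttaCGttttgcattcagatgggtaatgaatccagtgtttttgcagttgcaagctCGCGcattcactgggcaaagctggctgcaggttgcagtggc
Nr2f1 upstream, chr13:78198824-78199123, minus strand: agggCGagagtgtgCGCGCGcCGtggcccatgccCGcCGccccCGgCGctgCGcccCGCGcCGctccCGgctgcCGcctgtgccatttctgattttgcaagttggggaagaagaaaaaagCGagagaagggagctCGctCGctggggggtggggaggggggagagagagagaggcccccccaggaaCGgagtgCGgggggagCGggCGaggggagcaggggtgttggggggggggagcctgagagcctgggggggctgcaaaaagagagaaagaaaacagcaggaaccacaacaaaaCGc
Emx1, chr6:85187681-85187980, plus strand: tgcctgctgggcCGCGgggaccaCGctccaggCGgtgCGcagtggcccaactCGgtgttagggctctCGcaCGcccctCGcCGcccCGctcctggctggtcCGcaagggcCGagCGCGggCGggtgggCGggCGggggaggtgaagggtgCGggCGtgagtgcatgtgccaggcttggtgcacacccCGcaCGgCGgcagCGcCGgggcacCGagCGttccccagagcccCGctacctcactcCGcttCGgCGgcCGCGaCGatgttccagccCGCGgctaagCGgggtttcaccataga
Nr2f2, chr7:70366697-70366996, minus strand: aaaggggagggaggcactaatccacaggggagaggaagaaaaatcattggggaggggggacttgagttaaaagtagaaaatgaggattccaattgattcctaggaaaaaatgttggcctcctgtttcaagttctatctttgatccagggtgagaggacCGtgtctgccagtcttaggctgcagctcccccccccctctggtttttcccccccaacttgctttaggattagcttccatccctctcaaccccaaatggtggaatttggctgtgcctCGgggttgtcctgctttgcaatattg
The number of CG dinucleotides did not sort these promoters by overlap with a peak. Emx1, without a peak, had 37, the highest number among the 14. Emx2 had 26, the internal Lhx2 promoter 29 and the upstream Nr2f1 promoter 23, while the internal Nr2f1 promoter had 4 and Nr2f2 had 2. The median over all 32619 promoter windows in the table was 7. Overlap is a narrow measure here, as the upstream Nr2f1 promoter lay 87 bases from a deleted and 108 from a control peak. The peaks over the internal Nr2f1 promoter had fold enrichments of 3.19 in deleted and 10.5 in control cells. The homeodomain motif TAATTA, which reads the same on both strands, occurred once in the Emx2 promoter, near the 3′ end of the printed run. It was in 5.25% of all promoters and in 1.89% of those that peaks of both lists overlapped. Among promoters without a peak, 1 of the 4 listed for Otx2 held 3 copies of TAATTA and 1 copy of TAATCC on either strand, another for Otx2 held 1 copy of TAATTA, and that of Nr2f2 held 2 copies of TAATCC, found in 7.04% of all promoters. TAATTA and TAATCC share their first letters but cannot match at the same place. The nuclear receptor letters AGGTCA were in 16.2% of all promoters, the SOX letters AACAAT in 10.6% and the E-box CAGCTG in 16.4%. On either strand none of these 3 matched in the 14 windows.

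Acetylation was gathered at 5 of the 9 genes, Otx1, Emx2, Nr2f1, Lhx2 and Pax6, and was sparse or not called at Emx1, Nr2f2, Otx2 and Six3. The same 5 genes had overlapping peaks in deleted and control cells. Counting any peak in the window, 6 of 9 genes had one in both lists, against 68.5% of protein-coding genes, so the number of genes with a peak was near the background. Nr2f2 had a peak only among deleted ones, as did 5.13% of protein-coding genes. None of the 9 had one in control cells alone, against 0.726%, and Otx2 and Six3 had none, as was the case for 25.7%. The median gene of the 9 had 4 deleted and 3 control peaks, against 3 and 2 over all protein-coding genes. By the covered percentage of the window, Otx1, Emx2 and Nr2f1 were among the top 4.01% of genes in the deleted and the top 2.49% in the control list, whereas Lhx2 was at 19.8% in both and Pax6 at 27.7% in deleted and 20.6% in control cells. By their strongest peak, Otx1, Emx2, Nr2f1 and Pax6 were among the top 3.94% in deleted and 2.53% in control cells. The strongest peak of Lhx2 (5.71 and 7.47) was below the median of gene windows with a peak (7.89 and 7.67).

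**Figure D1:**
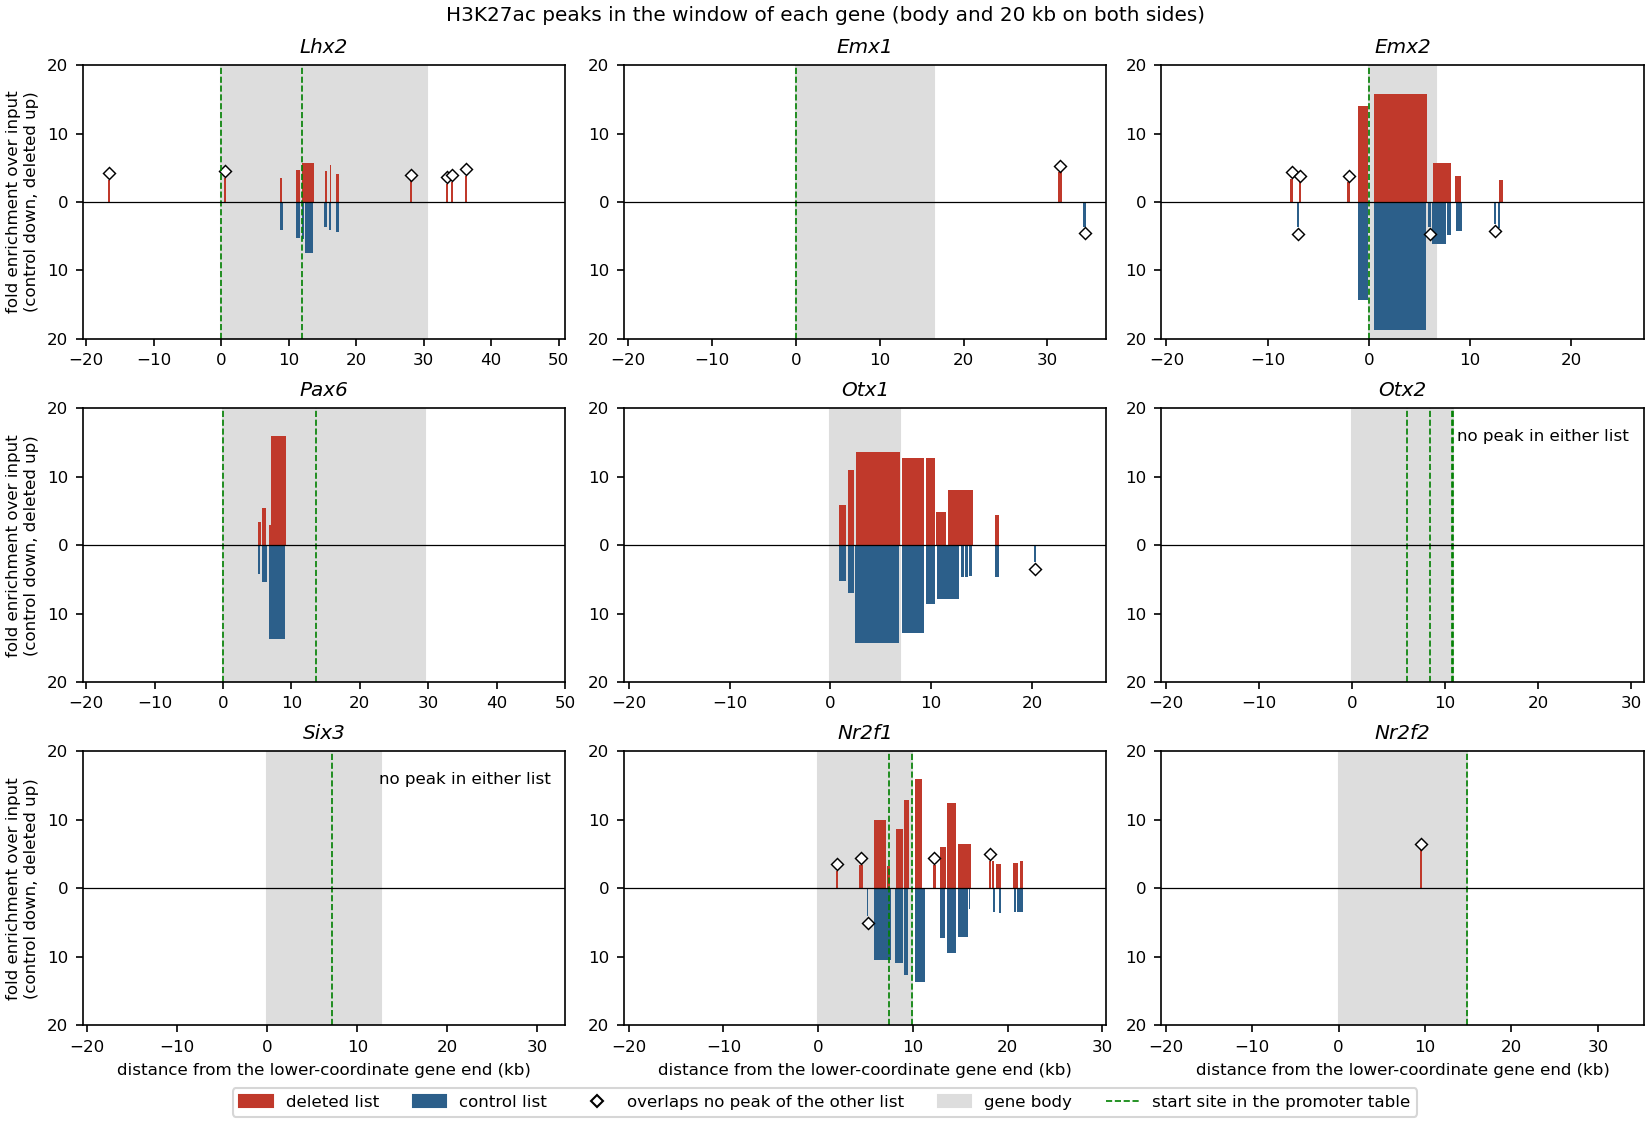
H3K27ac peaks in each gene window, plotted as distance in kb from the lower-coordinate end of the gene body (horizontal) against fold enrichment (vertical, deleted list upward and control list downward, 1 library each). Bar width is peak width, diamonds mark peaks that overlap none of the other list, grey is the gene body and dashed lines are listed start sites. The blocks of Emx2, Pax6, Otx1, Nr2f1 and Lhx2 stand at the same place in both lists, and Otx2 and Six3 are empty.

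Emx2 carried a broad block of acetylation over its start and body. Its window (body at chromosome 19, 59458690 to 59465357) held 8 peaks and 9.76 kb of covered DNA in deleted cells and 9 peaks and 9.20 kb in control cells. The main peak spanned 5275 bases at a fold enrichment of 15.9 in deleted cells and 5193 bases at 18.8 in control cells. By width it was number 13 of all deleted peaks and number 9 of all control peaks. A further peak of 963 bases (14.1) in deleted and 906 bases (14.3) in control cells lay just upstream, in the antisense gene Emx2os. The start site fell in the gap between both peaks. It lay 121 bases from the upstream peak and 486 from the main peak in deleted cells, and 125 and 472 in control cells. The summits of the main peak, 1425 and 1421 bases downstream of the start site, were 4 bases apart. Around this block lay 3 deleted-only peaks of 2.85 to 3.36 and 3 control-only peaks of 3.23 to 3.63, all weak.

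Emx1, the relative of Emx2 in cortical progenitors, had no peak in its body (chromosome 6, 85187931 to 85204463). Its window held 1 peak in each list, and these did not overlap each other. The deleted peak (521 bases, 4.33) lay 14.7 kb beyond the gene and the control peak (313 bases, 3.60) lay 17.8 kb beyond it, both inside the neighbouring Sfxn5. With windows of 10 kb Emx1 had 0 peaks in both lists.

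Lhx2 had an internal block of moderate peaks common to both cultures, and further weak peaks in deleted cells. The window (body at chromosome 2, 38339271 to 38369737) held 12 deleted peaks (4.90 kb) and 7 control peaks (3.48 kb). Every control peak overlapped a deleted one, and 6 of the 12 deleted peaks overlapped no control peak, a share near the 50.6% of all deleted peaks. All 7 and 6 of the deleted peaks lay between 8.67 and 17.5 kb from the start of the body. The widest of them, 1742 bases (5.71) in deleted and 1223 bases (7.47) in control cells, lay at the internal start site or just downstream of it. In both lists that start site was inside a peak, which in control cells was a separate one of 251 bases (5.45). The other 6 deleted peaks overlapped no control peak and ranged from 2.69 to 3.86. They included a peak of 230 bases (3.50) that began 468 bases downstream of the first listed start site, while the nearest control peak to that site was 8689 bases away. When the deleted list was shortened to as many peaks as the control list, by q-value, Lhx2 had 8 deleted peaks, of which 2 overlapped no control peak, so 4 of the 6 were below that limit. The part of depth in the remaining 2 was not tested.

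Pax6, a paired-domain factor of dorsal progenitors, had a compact block inside the gene. The window (body at chromosome 2, 105668896 to 105698410) held 4 deleted peaks (3.40 kb) and 3 control peaks (3.29 kb), all within the body between 5.10 and 9.20 kb from its start. The main peak was 2120 bases wide with 16.0 in deleted cells and 2331 bases wide with 13.7 in control cells. No peak lay at either listed start site: the first was 5102 bases from the nearest deleted peak and 5098 from the nearest control peak, and the second 4364 and 4457. All 7 peaks overlapped the other list, and 91.8% of the bases covered in deleted cells were also covered in control cells. None overlapped the body of the noncoding neighbours Pax6os1 and Paupar or of Elp4.

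Otx1 had the largest covered length of the 9 genes. Its window (body at chromosome 11, 21994764 to 22001651) was covered over 12.7 kb by 8 deleted peaks and over 12.4 kb by 11 control peaks, 27.1% and 26.5% of its length. Only 1.10% of protein-coding genes had as large a covered percentage in deleted cells, and 0.472% in control cells. The main peak, 4358 bases (13.6) in deleted and 4362 bases (14.3) in control cells, filled most of the body and was number 45 and number 21 of its list by width. Next to it outside the body stood a peak of 2192 bases (12.8) in deleted and 2106 bases (12.9) in control cells. A stretch was divided differently, since 1 deleted peak of 2451 bases overlapped 4 control peaks. Of the bases covered in deleted cells 94.3% were also covered in control cells, and 96.4% the other way round. Of these peaks 3 deleted and 6 control ones overlapped the body of Ehbp1, and 5 in each list did not. The only list-only peak, in control cells, was 175 bases wide (2.43).

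Otx2, needed for forebrain and midbrain and its partner in the family, had 0 peaks in both windows (body at chromosome 14, 48656781 to 48667644). The nearest peak lay 42.5 kb away in deleted cells (4.87) and 42.6 kb away in control cells (3.63), on the side of the start sites. Six3 (chromosome 17, 85613608 to 85626191) also had 0 peaks in both windows, and its nearest peaks were 332 kb away in deleted (4.20) and 414 kb away in control cells (2.83). A peak list gives no value where no peak was called, so weak acetylation below the q-value limit was not detectable at these genes.

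Nr2f1 had the most peaks, spread over the 5′ part of the gene and the DNA upstream of it. The window (body at chromosome 13, 78188971 to 78198873, minus strand) held 16 deleted peaks (9.26 kb) and 13 control peaks (8.20 kb). In its body lay 38.2% of the covered bases in deleted and 39.0% in control cells, and the rest lay upstream. The strongest peak was upstream of the first start site in both lists, with 755 bases and 16.0 in deleted and 1031 bases and 13.7 in control cells. Its summits, at −669 and −663 bases from that start site, were 6 bases apart. As at Emx2, the start site lay in a gap, 337 bases from the upstream peak and 272 from the downstream one in deleted cells, and 358 and 478 in control cells. The downstream peak had 12.9 in deleted and 12.7 in control cells. Farther upstream, a peak of 954 bases (12.4) in deleted and 931 bases (9.48) in control cells had its summit at −4236 and −4249 bases. The noncoding gene A830082K12Rik overlapped 11 deleted and 10 control peaks, so these cannot be assigned to either gene. List-only peaks were 4 in deleted (2.52 to 4.03) and 1 in control cells (4.04).

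Nr2f2, the other COUP-TF gene, had 1 peak in deleted cells and 0 in control cells. That peak (chromosome 7, 70361375 to 70361620, 246 bases) lay in the gene body, 5238 bases downstream of the listed start site, with a fold enrichment of 5.54, among the top 17.0% of the deleted list. The nearest control peak to the gene was 452 kb away (3.20). Of 21 deleted peaks with a fold enrichment of at least 5 in the 9 windows, only the Nr2f2 peak overlapped no control peak. This 1 of 21 is near the background, as 4.17% of all deleted peaks of that strength overlapped none. With a −log10 q of 13.3, the Nr2f2 peak had to stay in the deleted list of equal length and at −log10 q of at least 5. Neither setting adds control peaks, so neither could change its place as a list-only peak.

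Within each pair of related genes, 1 gene carried nearly all of the acetylation in both lists. Emx2 had 8 deleted and 9 control peaks and Emx1 1 and 1. Otx1 had 8 and 11 and Otx2 0 and 0. Nr2f1 had 16 and 13 and Nr2f2 1 and 0. By covered length the order was Otx1, Emx2, Nr2f1, Lhx2, Pax6 and Emx1 in both lists, with Nr2f2 after Emx1 in the deleted list. Without replicates the spread behind neighbouring places in this order, such as 9.76 kb at Emx2 and 9.26 kb at Nr2f1, is unknown.

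**Figure D2:**
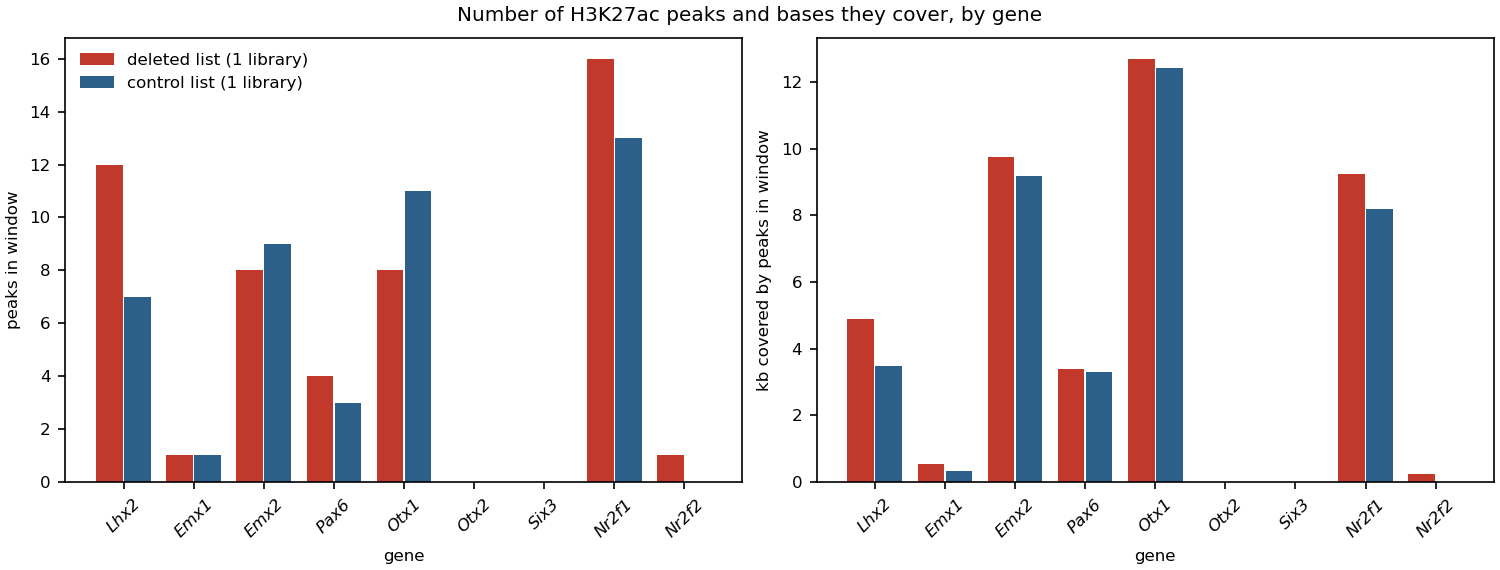
Number of peaks (left, count) and DNA covered by peaks (right, kb) in each gene window, with 1 bar for the deleted and 1 for the control library and no error bars because there is 1 library per group. Lhx2 has 12 deleted against 7 control peaks, whereas Otx1 has 8 against 11 with nearly equal cover of 12.7 and 12.4 kb.

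Across the 9 windows the ratio of the lists was lower than over the genome, and its counting interval held the value of the genome. The ratio of deleted to control peaks was 1.14 (95% interval 0.743 to 1.74) in the windows and 1.44 (1.42 to 1.45) over all peaks. Covered length was 40.8 kb in deleted and 36.9 kb in control cells. In the deleted list 15 of 50 peaks, 30.0% (exact Clopper-Pearson 95% interval 17.9 to 44.6), overlapped no control peak, against 50.6% of all deleted peaks. In the control list 6 of 44 peaks, 13.6% (5.17 to 27.4), overlapped no deleted peak, against 24.3% of all control peaks. The interval of the deleted list leaves out its background percentage and that of the control list holds it, but neither held under every alternative. With peaks under 500 bases apart merged, 43.3% (25.5 to 62.6) of deleted peaks were list-only against 52.1% of all, and among peaks of at least 5 in both lists 9.52% (1.17 to 30.4) against 26.9%, and both intervals hold the background. For the control list the interval leaves it out with windows of 10 kb, 4 of 40 peaks (2.79% to 23.7%) against 24.3%, and in lists of equal length, 15.9% (6.64 to 30.1) against 32.6%. These intervals cover counting error only, and neighbouring peaks of 1 gene are not independent. The lists also share regions, as 35 of the 50 deleted and 38 of the 44 control peaks overlapped the other list. The interval of the ratio ignores this. Whether an interval holds a background value is therefore a description and not a test. The backgrounds are all peaks, also those outside gene windows.

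Strong and wide peaks were also a larger share of the peaks in these windows than of all peaks. All peaks include those outside gene windows, and the share among peaks in the windows of other genes was not computed. List-only peaks made up 4.17% of all deleted and 1.28% of all control peaks with a fold enrichment of at least 5. A fold enrichment of at least 5 was reached by 21 of 50 deleted peaks, 42.0% (28.2 to 56.8), against 20.9% of all, and by 21 of 44 control peaks, 47.7% (32.5 to 63.3), against 28.9% of all. In each list Nr2f1 held 7 and Otx1 6 of the 21, while Emx1, Otx2 and Six3 held none. These intervals and those for width below cover counting error only, and neighbouring peaks of 1 gene are not independent. A width of at least 1 kb was found for 9 deleted peaks, 18.0% (8.58 to 31.4) against 7.12% of all, and for 10 control peaks, 22.7% (11.5 to 37.8) against 5.86% of all. All of these wide peaks overlapped a peak of the other list. The median fold enrichment was 5.71 for the 35 overlapping and 3.36 for the 15 list-only deleted peaks, and 5.35 for the 38 overlapping and 3.62 for the 6 list-only control peaks. Local input background lay above the floor of the list by more than 2% at 7 of the 50 deleted and 2 of the 44 control peaks, against 14.6% and 16.1% of all peaks.

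**Figure D3:**
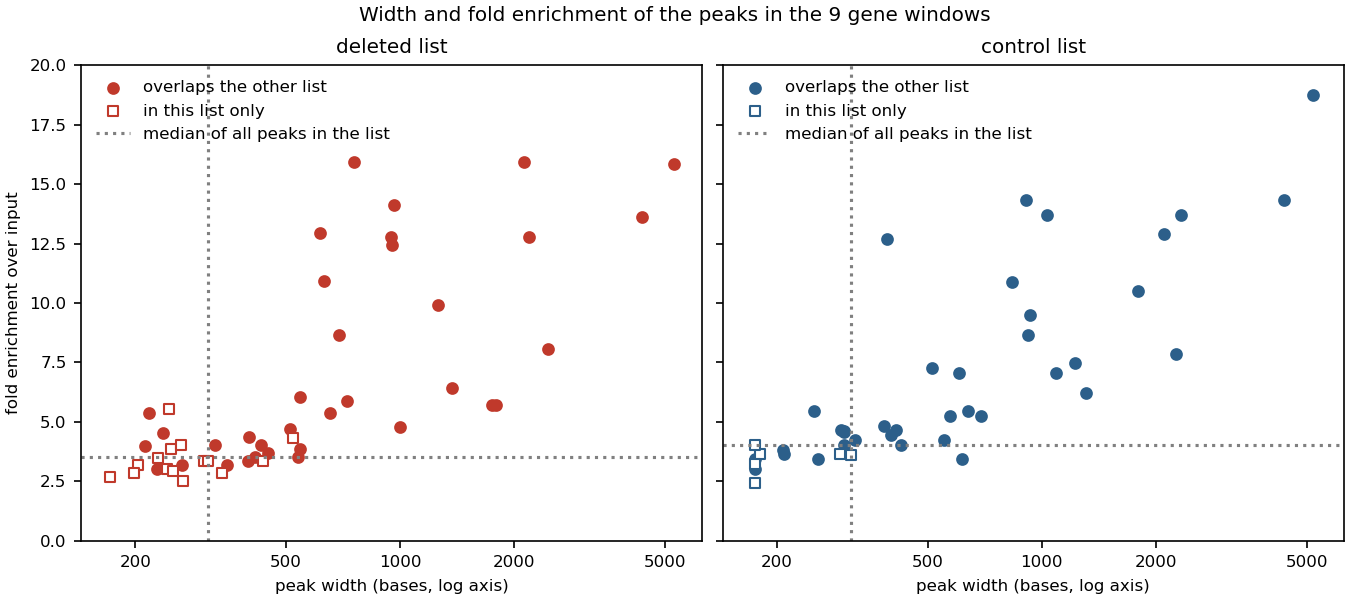
Width in bases (horizontal, log axis) and fold enrichment over input (vertical) of the 50 deleted (left) and 44 control (right) peaks in the 9 windows, each point 1 peak and dotted lines the medians of all peaks in the list. Open squares, the list-only peaks, sit mostly toward the narrow and weak corner. Several in the deleted list lie above a median line, among them the Emx1 peak (521 bases, 4.33). The Nr2f2 peak at 5.54 is the highest open square.

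Positions were close between the lists. Of the peaks in the windows, 24 pairs overlapped one to one, and their summits were a median of 44.0 bases apart (range 4 to 815), with 19 pairs, 79.2%, within 100 bases. Over the genome 35969 such pairs had a median of 66.0 bases, and 62.9% were within 100 bases. The 2 pairs over 500 bases apart were the 2 widest of Otx1, with 554 and 815 bases. The unscaled fold enrichment was higher in the deleted list for 9 pairs and in the control list for 15.

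Other patterning genes gave a mixed regional picture, read with the same windows. Over all protein-coding genes 68.5% had a peak in both lists, a larger share than in each list below. A further 5.13% had one among deleted peaks only and 0.726% among control peaks only. Of 24 further forebrain and dorsal genes 6 had a peak in both lists and 4 among deleted peaks only. Among the strongest in the control list were Nr2e1, an orphan receptor of neural stem cells (11.8 in deleted and 11.8 in control cells), and Dmrta2, a cortical factor (14.4 and 10.9). Those with deleted peaks only included Sp8 (4.87), Eomes (4.03) and, named beyond the rule, Wnt8b (3.02). Among the 14 genes without a peak were the dorsal neurogenic genes Neurog1, Neurog2 and Tbr1. Of 16 ventral forebrain genes 3 had a peak in both lists, among them Nkx2-2 (13.6 and 12.3) and Gsx2 (4.70 and 3.60), and 2 among deleted peaks only, Shh (4.70) and Nkx6-2 (4.03). Of 16 midbrain and hindbrain genes 6 had a peak in both lists, 3 among deleted peaks only and 1 among control peaks only. Highest in control cells were Fgf8 (8.40 and 8.68), Egr2 (8.06 and 8.07) and Gbx2 (4.53 and 4.64), while in deleted cells Pax8 (5.54, against 4.44 in control cells) was above Gbx2. A peak in 1 list only was found at Irx3 (4.87) and Lmx1b (3.36), among others, in deleted cells and at Pax2 (3.43) in control cells. A fold enrichment of at least 10 in the deleted list was reached by 4 of the 9 factors, 4 of the other forebrain genes, 2 of the ventral genes and 0 of the midbrain and hindbrain genes, against 20.2% of protein-coding genes. None of the 11 Hox genes of the trunk and hindbrain had a peak in either list.

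**Figure D4:**
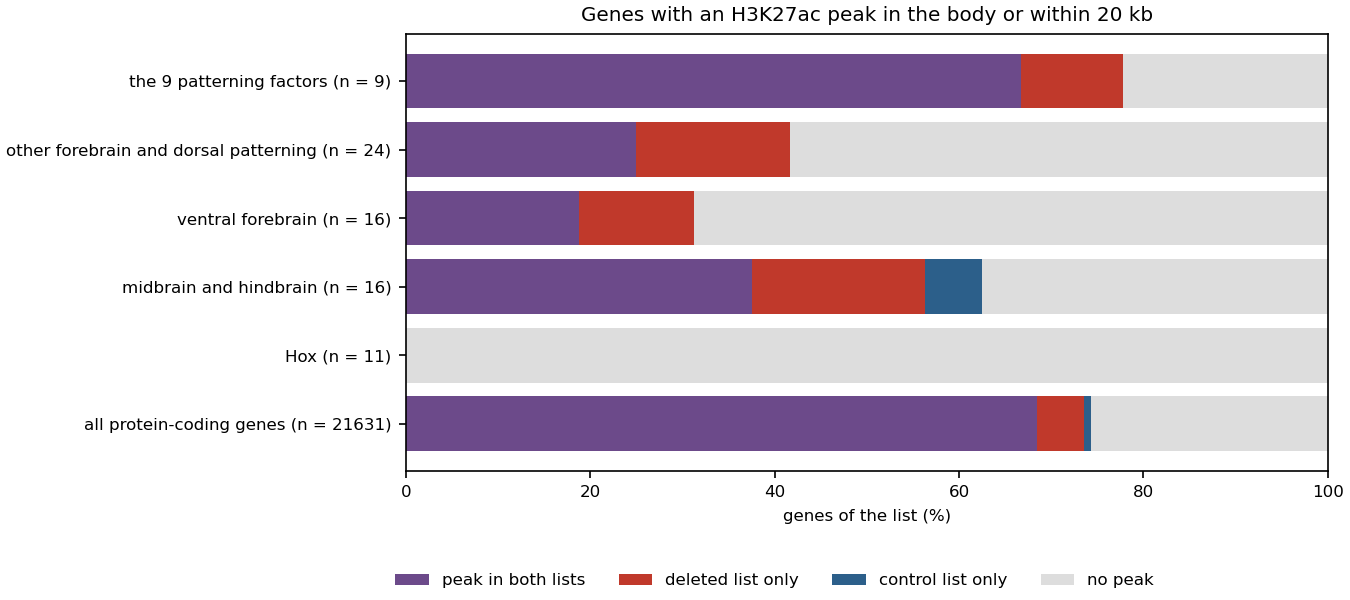
Percentage of the genes of each list (horizontal) with a peak in the body or within 20 kb in both lists, in 1 list only or in neither, for the 9 patterning factors, 4 lists of other patterning genes and all 21631 protein-coding genes. The factors (6 of 9 in both) lie near all protein-coding genes (68.5%), and the Hox list is empty.

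As a check of the cell label, all 7 neural stem cell markers, Sox2, Nes, Vim, Fabp7, Msi1, Hes5 and Sox9, had window peaks in both lists. So did 5 of 6 neuron, 4 of 4 astrocyte, 3 of 4 oligodendrocyte, 2 of 4 microglia, 2 of 4 fibroblast, 1 of 3 endothelial and 1 of 3 pluripotency markers. Over all protein-coding genes 68.5% had peaks in both lists, so a window peak says little about cell type. The highest fold enrichment per gene had a median of 12.6 in deleted and 12.5 in control cells for stem cell markers. This median, over genes with a peak, was 7.89 and 7.67 for all protein-coding genes. For the other marker groups it ranged from 3.67 (neuron) to 8.84 (astrocyte) and from 4.44 (pluripotency) to 9.28 (endothelial). Among the markers without a peak were Snap25 (neuron), Cx3cr1 and Itgam (microglia), Dcn (fibroblast), Kdr (endothelial) and Zfp42 (pluripotency). These windows also hold neighbouring genes, and the part of other cell types in the peaks of the patterning factors was not tested.

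Genes with a pattern most like each factor were found from 4 values in the 2 libraries, the number of peaks and the highest fold enrichment in each list, on a log2 scale. Nearest to Nr2f1 was Kdm6b (distance 0.0584, with 16 and 13 peaks and 15.6 and 14.2). Nearest to Otx1 was Bmpr1a (0.126), to Lhx2 Mzb1 (0.0898), to Pax6 Birc6 (0.111) and to Emx1 Tmem184c (0.0476). Emx2 had the farthest nearest genes, Banf1 and its neighbour Eif1ad (0.290 each). Bmpr1a had the same 8 and 11 peaks as Otx1 but covered 4.62 and 4.71 kb against 12.7 and 12.4 kb, and Banf1 covered 3.37 and 3.17 kb against 9.76 and 9.20 kb at Emx2.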

How the data were processed

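H3K27ac ChIP-seq peak lists of 1 Smchd1-deleted and 1 control library were used. The submitters' processing notes name Bowtie 0.12.9 and mm10. Per the file headers, MACS2 2.1.0.20140616 called peaks in each library with an input as control and a q-value limit of 0.05, with 1 tag kept per position and the larger library down-sampled. The deposited columns are the pileup signal at the summit, −log10 p, −log10 q, the fold enrichment ratio and the width of each peak.

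Peaks on chromosomes 1 to 19 and X were kept. Gene bodies, names and promoter sequences were from RefSeq (GRCm38.p6, the same primary chromosomes as mm10). Peaks were shared when at least 1 base overlapped. With 1 library per group no test was made. Covered percentages were ranked over 21631 protein-coding windows. Members and lists were chosen with earlier results of these data known. Lists name the 3 genes highest in control cells and up to 3 in 1 list only, and single peaks named are the strongest of each window and list-only peaks of at least 5. Some genes that this rule names are not reported here. Other peaks and genes named were chosen after their values were seen. Overlap and window counts were tested on simulated data. Python 3.11.15, pandas 2.3.3 and scipy 1.17.1 were used.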

Additional observations from a re-analysis of the deposited data

How the results depend on the processing

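No paired analysis was possible because each group has 1 library. In all, 8 alternatives to windows, thresholds and overlap were planned, and leaving out peaks in other protein-coding genes was added after the data were seen. The 9 windows held 24 deleted and 20 control peaks in gene bodies alone, 21 and 21 with folds of 5 or more, and 30 and 20 after peaks under 500 bases apart were merged. At a fold enrichment of at least 5 in both lists, 9.52% of deleted and 4.76% of control peaks were list-only, against 26.9% and 19.04% of all such peaks. Of 54 such values over all 9 windows, the other 46 stayed within 1.5 times the reported count or within its interval. Counts for single genes were less stable, as 245 stayed within 1.5 times and 79 did not. Many of the 245 were counts of 0 that stayed at 0, such as all those of Six3. Settings that only remove peaks could not change a gene without peaks. Pax6 had 1 deleted peak in place of 4 after merging, and Emx2 had 2 in place of 8 in its body alone. The ratio of deleted to control peaks ranged from 0.955 in lists of equal length up to the 30 against 20 peaks after merging. In lists of equal length 19.05% of deleted and 15.9% of control peaks were list-only, against 38.3% and 32.6% of all. Otx2 had 1 peak in each list with windows of 50 kb. Leaving out peaks in other protein-coding genes gave 46 deleted and 37 control peaks and 5 genes with peaks in both lists, since Emx1 then had none. In lists of equal length deleted-only peaks numbered 2 in place of 6 at Lhx2 and 1 in place of 3 at Emx2, and the part of depth was not tested.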

Other observations

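Beyond the 20 kb windows the genes differed in their surroundings, a count chosen after the data were seen. Between 20 and 200 kb from the gene, Otx1 had 1 deleted and 1 control peak, Otx2 1 and 1, Nr2f1 2 and 1, Nr2f2 1 and 0 and Six3 0 and 0. Otx1 and Nr2f1 thus had nearly all peaks called within 200 kb of them inside the 20 kb window, with 8 and 11 peaks at Otx1 and 16 and 13 at Nr2f1. Lhx2 had 19 deleted and 8 control peaks at that distance, of which 15 and 5 overlapped none of the other list, against 50.6% and 24.3% of all peaks. Emx1, with 1 weak peak per list in its window, had 47 deleted and 33 control peaks there, 24 and 10 of them list-only. Emx2 had 7 and 7, with 3 and 1 list-only, and Pax6 10 and 5, with 4 and 0 list-only. List-only among the few at the other genes were 1 and 1 at Otx1, 0 and 0 at Otx2, 1 and 0 at Nr2f1 and 1 and 0 at Nr2f2.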
